A study of Mus musculus with 4 samples.

Results

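The genes described here lie on mouse chromosome 16 and were read in 4 acute myeloid leukaemia lines, 2 of them selected for resistance to cytarabine (Ara-C). A gene was included if its listed locus was on chromosome 16 and its mean level over the 4 lines was at least 1 FPKM (fragments counted on a transcript, scaled to its length in kilobases and to the mapped fragments of the library). The rule left out certain genes and gene families by name, 26 genes in all, among them surrogate light chain, interferon-induced, solute carrier and mitochondrial ribosome genes. That gave 302 genes of the 328 on the chromosome that reached this level and of the 672 listed there. The genes were selected on their position and mean FPKM, and the chromosome was chosen by the ratio of B117H to B117P, because its genes read lower in the resistant line B117H than in its parent B117P. That comparison, and the others that use those 2 libraries, are therefore given as descriptions with no test.

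All 4 lines came from leukaemias of BXH-2 mice, an inbred strain that develops myeloid leukaemia through an endogenous retrovirus. B117P and B140P are the parental, Ara-C-sensitive lines, with Ara-C IC50 values of about 150 and 110 ng/ml. B117H and B140H are their highly resistant derivatives, with IC50 values of about 160 and 60 µg/ml. The labels give for all 4 lines, parents included, passage in ASM medium without Ara-C and also exposure to rising Ara-C concentrations, and each line is a single RNA-seq library of total RNA. With 1 library per line there is no replicate error, so no difference between lines was tested, and each could be a difference between these 2 RNA preparations only. A lower level in bulk RNA can come from fewer cells of a type or from less RNA per cell, and the libraries cannot tell these apart.

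Mouse chromosome 16 carries blocks of genes whose human counterparts sit together elsewhere. Its proximal part holds the counterparts of the human 22q11 region, deleted in DiGeorge syndrome, and its distal part holds many counterparts of human chromosome 21 genes, which are present in an extra copy in Down syndrome. Between and around these blocks lie genes for cytokine receptors, surface receptors of immune cells, ribosomal proteins and chromatin regulators. Ara-C is a deoxycytidine analogue that has to be phosphorylated inside the cell before it is incorporated into DNA.

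The 250 bases before the annotated start of 5 of these genes are shown as examples. Ccdc50 had the lowest log2(FPKM + 1) ratio in lineage B117, and Ranbp1 and Sod1 are among the 5 most abundant of these genes. Ifngr2 stands for the interferon receptor cluster, and Alcam for the few genes that read higher in B117H. All 5 were picked after the values were seen. The sequences are RefSeq promoters of build GRCm38.p6, written 5′ to 3′ on the gene's strand, with capitals for matches on either strand to 4 short motifs. A GC box, the element read by Sp1-type factors, was searched as GGGCGG. Next, a CCAAT box, bound by the factor NF-Y in many housekeeping promoters, was searched by the letters of its name. Likewise, a TATA box, which positions the start of transcription, was searched as TATAAA. An ETS site, read by the family that Erg and Ets2 of this chromosome belong to, was searched as CCGGAAG. Ccdc50 is at chr16:27388706-27388955 on the plus strand, Ranbp1 at chr16:18248695-18248944 on the minus strand, Sod1 at chr16:90220512-90220761 on the plus strand, Ifngr2 at chr16:91546809-91547058 on the plus strand and Alcam at chr16:52453082-52453331 on the minus strand.
Ccdc50: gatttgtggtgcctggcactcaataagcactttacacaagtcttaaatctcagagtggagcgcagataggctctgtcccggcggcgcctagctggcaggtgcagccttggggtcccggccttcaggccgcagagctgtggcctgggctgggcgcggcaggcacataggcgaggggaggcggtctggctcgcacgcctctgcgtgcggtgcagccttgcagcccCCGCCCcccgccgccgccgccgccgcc
Ranbp1: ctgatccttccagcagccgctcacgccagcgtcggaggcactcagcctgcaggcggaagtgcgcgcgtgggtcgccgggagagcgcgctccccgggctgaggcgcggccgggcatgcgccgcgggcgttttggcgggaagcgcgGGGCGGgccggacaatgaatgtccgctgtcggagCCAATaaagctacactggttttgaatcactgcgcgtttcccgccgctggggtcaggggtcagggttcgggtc
Sod1: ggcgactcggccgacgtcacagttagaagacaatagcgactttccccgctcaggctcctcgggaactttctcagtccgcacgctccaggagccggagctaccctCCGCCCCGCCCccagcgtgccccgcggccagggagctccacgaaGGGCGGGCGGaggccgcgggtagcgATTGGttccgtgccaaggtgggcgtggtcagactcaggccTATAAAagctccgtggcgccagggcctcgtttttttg
Ifngr2: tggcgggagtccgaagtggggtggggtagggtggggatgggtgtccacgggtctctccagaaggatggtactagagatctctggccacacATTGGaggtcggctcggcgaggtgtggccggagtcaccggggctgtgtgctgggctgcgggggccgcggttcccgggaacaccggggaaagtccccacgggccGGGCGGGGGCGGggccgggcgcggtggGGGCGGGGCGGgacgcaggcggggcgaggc
Alcam: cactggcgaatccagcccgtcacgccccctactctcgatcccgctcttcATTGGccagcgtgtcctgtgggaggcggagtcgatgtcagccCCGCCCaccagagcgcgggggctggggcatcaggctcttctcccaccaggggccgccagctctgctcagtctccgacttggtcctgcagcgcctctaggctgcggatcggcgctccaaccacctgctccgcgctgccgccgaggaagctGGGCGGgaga

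A GC box was found in all 5 windows, 4 times each in Sod1 and Ifngr2, and a TATA box in Sod1 only. Adjacent GC boxes overlap in Sod1 and Ifngr2, so some capitals run together, and a CCAAT box on the opposite strand reads ATTGG. Of the 302 genes, 259 had a promoter in the table. A GC box was present in 59.1% of these, in 61.1% of 7839 promoters of other expressed genes and in 32.9% of all 27025 promoters in the table. The corresponding shares were 38.6%, 37.3% and 34.5% for a CCAAT box, 6.18%, 5.64% and 12.97% for a TATA box, and 18.5%, 15.98% and 7.05% for an ETS site. Among the 87 genes with the lowest B117 ratios, 62.1% held a GC box and 19.5% an ETS site, against 55.2% and 16.1% of the 87 with the highest. The chromosome 16 promoters were thus close in these letters to those of other expressed genes, and matches in such short windows do not mark bound sites.

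In lineage B117, the chromosome 16 genes read lower in the resistant line almost throughout. Of 302 genes, 278 (92.1%) had a lower value in B117H than in B117P, against 52.2% of the 9764 other expressed genes. On the log2(FPKM + 1) scale used for every ratio here, the median of B117H over B117P was -0.48, with quartiles of -0.66 and -0.28, against -0.02 for the other genes. A 95% binomial interval of that median over genes ran from -0.50 to -0.44. It concerns the median and not the spread among genes, and it treats genes as the sampled units. The genes share the same 2 libraries and are not replicates. On the plain FPKM scale the median gene kept 69.5% of its B117P level, and the median other gene 98.6%. The distance between the quartiles was 0.38 log2 units among the chromosome 16 genes and 0.41 among the others, so the genes were about as spread as the rest around a lower centre.

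The shift was made of many small differences. At or below 0.8 times the parental value of FPKM + 1 were 218 of the 302 genes (72.2%), against a background of 20.4% over all 10066 expressed genes. At least 2-fold lower were 15 genes (4.97%), against a background of 3.21%, and at least 2-fold higher were 2 genes (0.662%), against 1.41%. These shares come from the contrast that chose the chromosome, and nothing is read from them beyond their size. With the libraries centred on their medians the 15 became 11, with equal sums of FPKM they became 12, and the 2 stayed at 2. Shares over all expressed genes are not given for these scalings. Well-expressed genes showed the shift most evenly. The third with the highest mean levels, from 21.9 to 1695 FPKM, had a median of -0.53 with 100 of 101 genes below 0, and the third with the lowest levels had a median of -0.40 with 88 of 101 below 0. The pseudocount shrinks the ratios of low genes, and with the 316 genes below 1 FPKM added the median was -0.06.

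In lineage B140 most of the same genes did not read lower in the resistant line, as was so for expressed genes in general. Of the 302 genes, 89 (29.5%) were lower in B140H than in B140P, against 35.8% of the other genes, and with the libraries centred on their medians the 29.5% became 42.1%. In the uncentred values the median ratio was 0.17 (95% binomial interval over genes 0.13 to 0.22), against 0.11 for other genes. B140H read higher than B140P over all expressed genes, with a median of 0.11, so that a value of 0.17 is 0.06 above the other genes of that lineage. At or below 0.8 times the parental value were 25 genes (8.28%, background 12.1%). At least 2-fold lower were 5 genes against a background of 1.63%, and at least 2-fold higher were 7 against 2.31%. With each library centred on its median, those 7 became 4 and the 5 stayed at 5. Below 0 in lineage B117 and above 0 in lineage B140 were 199 genes (65.9%), against 35.5% of other genes. Below 0 in both were 78 genes (25.8%), against 16.03% of other genes. Both joint shares carry the contrast that chose the chromosome, with 92.1% of these genes below 0 in lineage B117 against 52.2% of others. Nothing particular to lineage B140 is read from them.

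The parental lines were not alike on this chromosome. B117P read higher than B140P, with a median ratio of 0.42 (interval 0.36 to 0.48) against -0.01 for other genes. B140P was at or below 0.8 times B117P for 179 genes (59.3%, background 29.3%). B117P gave the highest of the 4 values for 192 genes (63.6%), against 20.6% of other genes. The resistant lines were closer: B117H over B140H had a median of -0.26 (interval -0.33 to -0.21), against -0.14 for other genes, and 134 genes (44.4%, background 37.7%) were at or below 0.8 times B140H. With the libraries centred on their medians, B117H over B140H had a median of -0.12. These comparisons share libraries with those within the lineages and are given side by side only.

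**Figure D1:**
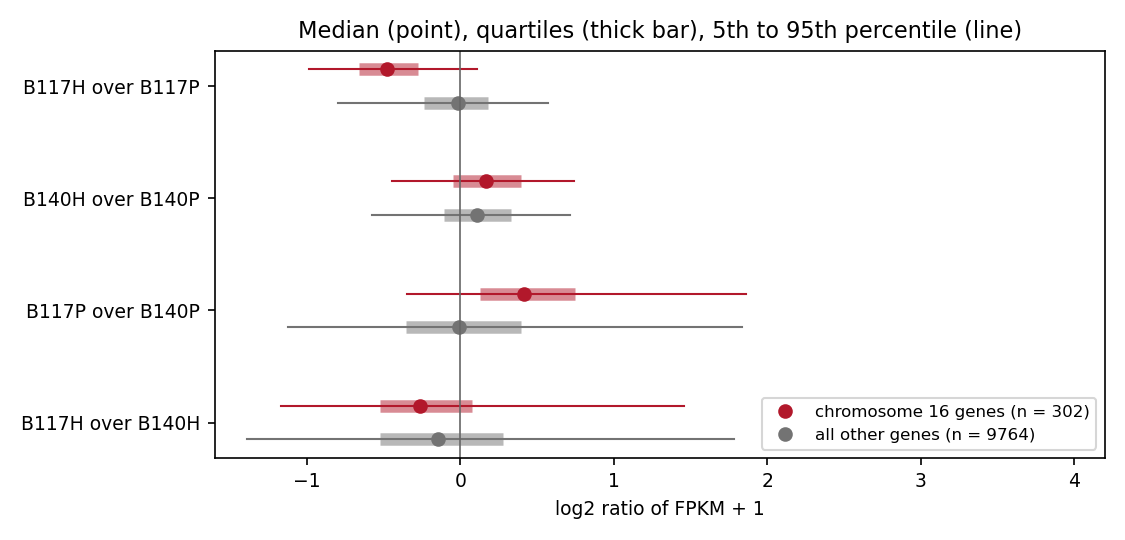
Median (point), quartiles (thick bar) and 5th to 95th percentile (line) of the log2 ratio of FPKM + 1 in each of the 4 comparisons, for the 302 chromosome 16 genes (red) and the 9764 other expressed genes (grey), with 1 library per line. The red median lies at -0.48 for B117H over B117P and at 0.42 for B117P over B140P, while the grey medians lie between -0.14 and 0.11.

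The lower values ran along the whole chromosome. Coordinates of the deposited values are in build mm9, where the first of the 302 genes, Nat15, starts at 3884619 and the last, A630089N07Rik, lies near 98.3 Mb. In 10 Mb bins the median B117 ratio lay between -0.54 (20 to 30 Mb, 31 genes) and -0.35 (40 to 50 Mb, 18 genes). The running median of 15 neighbouring genes was below 0 in all 288 windows, from -0.71 to -0.08. The same running median was below 0 in 15 of 288 windows in lineage B140, where it ranged from -0.11 to 0.49. For B117P over B140P it was below 0 in none, with a range of 0.01 to 0.87. Across genes, Pearson's r of the B117 ratio with the order along the chromosome was 0.00 (Spearman's rho -0.05, n = 302), and neighbouring genes are not independent points.

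Differences were smaller than the median at the proximal end. The 27 genes from Nat15 to Fam86, between 3.88 and 5.26 Mb, precede a gap of 3.21 Mb with no included gene. Their median was -0.29 in lineage B117, with 20 of 27 below 0 and 12 at or below 0.8 times the parent. The next 27 genes, from 8.47 to 13.8 Mb, had a median of -0.46 with 27 of 27 below 0 and 21 at or below 0.8 times. The parental comparison had a median of 0.11 in the 27 proximal genes, 0.41 in the next 27 and 0.45 in all 275 genes beyond the gap. It shares the B117P library with the B117 ratio, so it is not a separate sign of a boundary. B117H over B140H, without that library, had medians of -0.36, -0.27 and -0.26 in the same order. The gap was chosen as a boundary after the data were seen, and its stretches were not tested. A second shallow run, with the running median at its highest value of -0.08 near Cd47, included Cd96 and Alcam, described below.

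**Figure D2:**
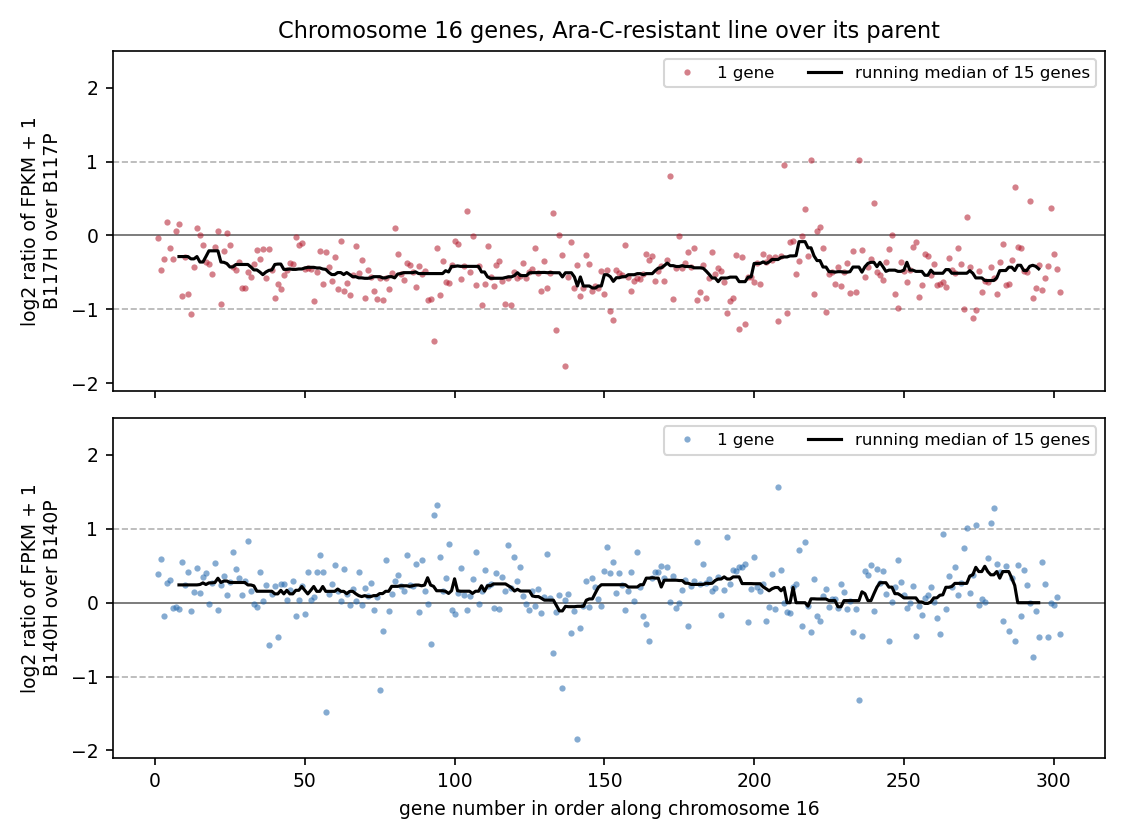
Log2 ratio of FPKM + 1 (vertical axis) of each of the 302 genes in their order along chromosome 16 (horizontal axis), for B117H over B117P (upper panel) and B140H over B140P (lower panel); the black line is the running median of 15 genes and dashed lines mark 2-fold. The upper line stays below 0 from end to end, between -0.71 and -0.08, and the lower line runs between -0.11 and 0.49.

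The most abundant genes were ribosomal and housekeeping ones, and they differed in how far they departed. Rpl35a, a protein of the large ribosomal subunit, was at 1769 FPKM in B117P, 1463 in B117H, 1567 in B140P and 1982 in B140H, and B117H thus kept 82.7% of its parent's level. Rpl24, of the same subunit, was at 850, 757, 810 and 862 FPKM in the same order, or 89.0% of the parent. Sod1, the cytosolic copper-zinc superoxide dismutase, was at 709, 456, 536 and 1025 FPKM. B117H was the lowest of the 4 libraries and B140H the highest in all of these. Ranbp1, a partner of the nuclear transport GTPase Ran, was at 556, 318, 358 and 549 FPKM. Hmgn1, a nucleosome-binding protein, was at 310, 185, 182 and 268 FPKM. For Ranbp1 and Hmgn1, B117P was the highest library and B117H and B140P were the lower pair. These genes have processed copies elsewhere in the genome, so their values depend on how the authors assigned shared reads.

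The lowest ratio on the log2(FPKM + 1) scale belonged to Ccdc50, which encodes a ubiquitin-binding signalling protein (27389063 to 27452304 in mm9). It was at 21.03 FPKM in B117P, 5.46 in B117H, 13.6 in B140P and 13.9 in B140H. B117H alone was low, and its level was 26.0% of the parent's, with a 95% exact counting interval of 21.1 to 31.9%. On the plain FPKM scale the low genes Gcet2 and Tnk2 were lower, at 8.996% and 10.1% of the parent, and with a pseudocount of 0.1 the ratio of Gcet2 was -2.78 against -1.93 for Ccdc50. The counting intervals rest on fragment numbers estimated from the files and on typical transcript lengths, and cover counting error only. Rtn4r, the Nogo receptor, known for limiting axon growth, was at 7.28, 2.06, 9.29 and 22.5 FPKM. B117H was again the lowest, at 28.4% (21.997 to 36.6%) of its parent, whereas B140H was the highest, at 243% of its own parent. Rtp4, an interferon-inducible chaperone of G-protein-coupled receptors, was at 9.94, 3.50, 0.805 and 0.662 FPKM, low in both B140 lines.

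Other genes at least 2-fold lower in B117H mostly had B117P as the library that stood apart. Tmem39a, a membrane protein of the endoplasmic reticulum, was at 34.1 FPKM in B117P and at 13.6, 13.3 and 19.0 in B117H, B140P and B140H. Bex6 was at 65.0 FPKM against 28.9, 16.3 and 24.4. Lrrc33, a leucine-rich repeat protein of myeloid cells that holds latent TGF-beta at the surface, was at 88.7 FPKM against 43.2, 40.8 and 54.2. In these 3 genes B117H lay near or among the B140 lines and B117P above all of them. Cox17, a copper chaperone for cytochrome c oxidase, was at 221, 106, 103 and 192 FPKM, with both B117P and B140H high. B4galt4, a galactosyltransferase, was at 17.6, 7.11, 14.7 and 21.7 FPKM, with B117H alone low. Over all 302 genes, B117P exceeded the 3 other lines while B117H lay between B140P and B140H in 56 (18.5%), against 4.34% of other genes.

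The remaining named genes of this group were low or share sequence with others. Gcet2, a germinal-centre B cell gene, was at 1.54 FPKM in B117P, 0.138 in B117H, 0.236 in B140P and 2.66 in B140H, and the B117H value rests on an estimated 7 fragments. Vasn was at 3.55, 1.18, 0.807 and 0.668 FPKM, but its listed span is that of Coro7, an actin regulator at 58.8, 33.5, 36.3 and 48.9 FPKM, so their reads may not be separable. Retnlb, a resistin-like secreted protein, was at 9.08, 3.84, 0.0898 and 0 FPKM, and related copies lie beside it. The 15 genes at least 2-fold lower also include the unnamed clone 2310061J03Rik, and Ifngr2, Ifnar2 and Tmem50b of the distal receptor cluster.

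**Figure D3:**
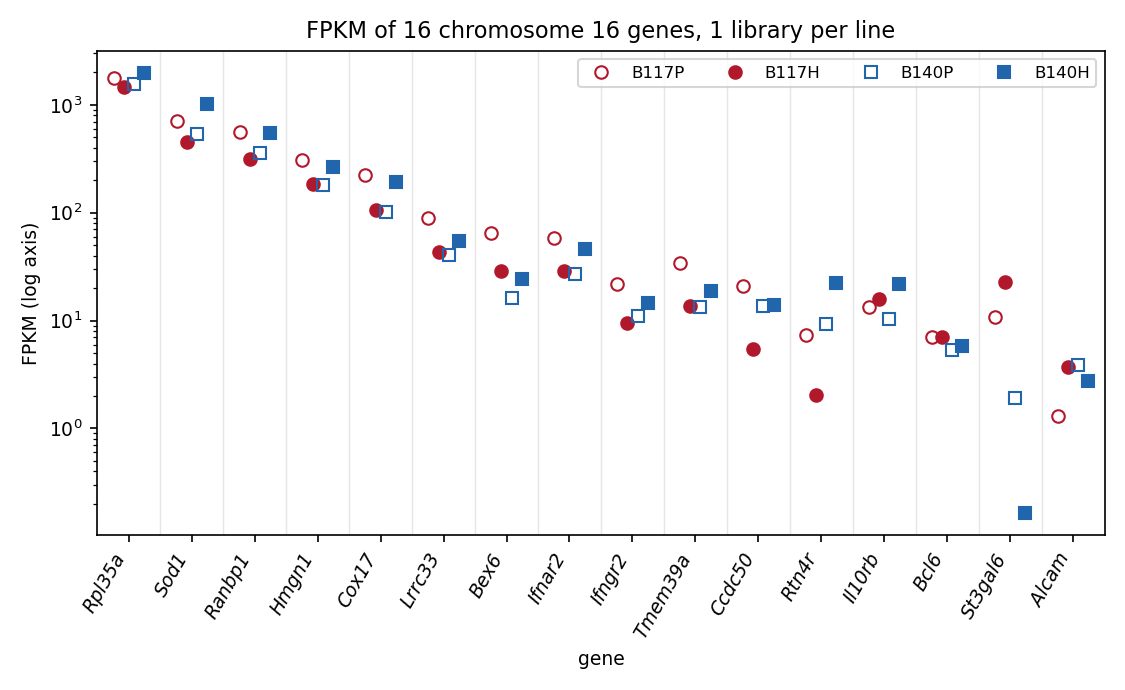
FPKM on a log axis of 16 named chromosome 16 genes in B117P (open circles), B117H (filled circles), B140P (open squares) and B140H (filled squares), 1 library each. From Sod1 to Rtn4r the filled circle lies below the open one, Il10rb and Bcl6 lie at or above their parent, and St3gal6 and Alcam lie above it.

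The receptor cluster at the distal end holds 4 neighbouring genes for class II cytokine receptor chains, of which 3 were at or below 0.8 times the parent. Ifngr2, the signalling chain of the interferon-gamma receptor (91547339 to 91564252 in mm9), was at 21.9 FPKM in B117P, 9.51 in B117H, 10.9 in B140P and 14.5 in B140H. B117H kept 43.5% (39.0 to 48.4%) of the parental level and B117P stood above the 3 others. Ifnar2, a chain of the type I interferon receptor, was at 58.3, 28.6, 27.0 and 45.9 FPKM, or 49.1% of the parent (44.6 to 54.0%). Ifnar1, the other chain of that receptor, was at 13.4, 9.67, 6.85 and 7.62 FPKM. Il10rb, the shared chain of the receptors for interleukin 10 and lambda interferons, went the other way, at 13.3, 16.01, 10.4 and 21.8 FPKM. It lies between Ifnar2 and Ifnar1 and was higher in the resistant line of both lineages. Next to Ifngr2, Tmem50b was at 24.7, 11.7, 7.02 and 15.6 FPKM. Over the 4 receptor genes the median was -0.72 for the B117 pair of lines and 0.56 for the B140 pair. Ifnar2 and Tmem50b stand at the 2-fold line: with the libraries centred on their medians their B117 ratios were -0.96 and -0.97.

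Of 20 listed genes for immune surface receptors, 7 were among the 302, with a median of -0.29 and 3 at or below 0.8 times the parent. On the log2(FPKM + 1) scale 1 was at least 2-fold higher, Alcam. In plain FPKM Cd96 was too, at 228% of the parent. A minimum of 5 FPKM removed Alcam and Cd96, which read higher in B117H, and Il1rap, and the median of the genes left was -0.48. Klhl6, included there as a lymphoid adaptor for receptor signalling, was at 71.0, 44.3, 36.1 and 58.5 FPKM. Alcam, an adhesion molecule that binds CD6, was at 1.31, 3.70, 3.91 and 2.73 FPKM. B117P was thus the low library, and B117H was at 281% of it, with a counting interval of 199 to 404%. Cd96, a receptor of T and NK cells for nectin-like ligands that is also used as a marker of leukaemic stem cells in human disease, was at 2.65 and 6.05 FPKM in B117P and B117H and was listed at 0 in both B140 lines. Il1rap, the accessory chain of the interleukin 1 receptor, was at 3.68, 2.88, 2.09 and 0.387 FPKM, at least 2-fold lower in B140H. The T lymphoid markers were below 1 FPKM in all 4 libraries, 5 of 5.

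The 29 regulators of transcription and chromatin had a median of -0.49 in lineage B117, with 25 below 0 and 21 at or below 0.8 times the parent. None was at least 2-fold different on the log2(FPKM + 1) scale. On the plain FPKM scale Glis2, Hic2, Nfkbiz and Yeats2 were past 2-fold, at 31.8%, 43.1%, 47.7% and 49.4% of the parent. Yeats2, a subunit of the ATAC acetyltransferase complex, was at 17.0, 8.39, 10.5 and 11.9 FPKM. Litaf, an endosomal protein once named as a transcription factor for TNF, was at 51.6, 28.3, 36.5 and 43.0 FPKM. In both genes B117P was the highest library and B117H the lowest. Ets2, an ETS factor of myeloid cells, was at 14.3, 7.55, 15.9 and 9.22 FPKM, low in the resistant line of both lineages. Bcl6, the germinal-centre repressor, was at 7.04 FPKM in both B117 lines and at 5.34 and 5.81 in B140P and B140H, so it did not share the lower values of the chromosome. Erg, an ETS factor of haematopoietic stem cells, read higher in B117H, at 27.5 and 38.6 FPKM (counting interval of the ratio 130 to 151%), and was listed at 0 in both B140 lines.

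Among 17 kinases and signal adaptors the median was -0.50, with 15 below 0 and 13 at or below 0.8 times the parent. Samsn1, an adaptor that restrains B cell receptor signalling, was at 68.7, 34.2, 40.5 and 61.2 FPKM. In B117H it was just short of 2-fold lower on the log2(FPKM + 1) scale and at 49.7% of its parent in FPKM. Dvl3, a relay of Wnt signals, was at 13.1, 7.78, 8.61 and 8.13 FPKM. B117P was the highest and B117H the lowest library for both. Mylk, the myosin light chain kinase, was at 1.21 and 2.87 FPKM in the B117 lines and at 0 and 0.0102 in the B140 lines. Pi4ka, a phosphatidylinositol kinase, was at 15.04, 16.2, 17.8 and 22.02 FPKM, the member of the list nearest to no difference in lineage B117. Its listed span overlaps that of another gene.

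Of the genes of protein synthesis, folding and turnover, 25 of 25 read lower in B117H, against 92.1% of the 302. At or below 0.8 times the parent were 19 of them (76%), against 72.2% of the 302. None was at least 2-fold lower, and the median was -0.49. These shares are near those of the chromosome, and no trait of the group is read from them. Sdf2l1, a cofactor of the chaperone BiP in the endoplasmic reticulum, was at 189, 104, 119 and 126 FPKM. Hspa13, an Hsp70-like protein of microsomes, was at 20.2, 11.3, 7.61 and 8.97 FPKM. Txndc11, a thioredoxin-domain protein, was at 29.2, 17.3, 18.5 and 22.4 FPKM. B117P was the highest of the 4 libraries for all 3 genes. Pdia5, a protein disulfide isomerase, was nearest to 0 at 8.26 and 8.20 FPKM and was listed at 0 in both B140 lines. In lineage B140 the group's median was 0.16.

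The 12 genes of DNA replication and repair had a median of -0.45, with 11 below 0 and 8 at or below 0.8 times the parent. Cdc45, part of the helicase that opens replication forks, was at 56.1, 36.9, 31.3 and 43.7 FPKM. Donson, which acts in loading and protecting that helicase, was at 10.8, 6.62, 6.88 and 11.01 FPKM. Nde1, a centrosomal protein of mitosis, was at 62.4, 40.4, 40.2 and 47.9 FPKM. In each of these 3 genes B117P exceeded B140P. Ercc4, a subunit of the XPF nuclease of excision repair, was at 4.25, 3.88, 3.27 and 3.97 FPKM. Its B117 ratio was 91.3%, with a counting interval of 70.2 to 118%. That interval covers counting error only, and a difference between the lines was not tested.

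Among 23 metabolic enzymes the median was -0.43, with 20 below 0 and 14 at or below 0.8 times the parent. On the log2(FPKM + 1) scale 1, B4galt4, was at least 2-fold lower. On the plain FPKM scale Prodh, at 44.0% of the parent, and Hlcs, at 251%, were also past 2-fold. Alg3, a mannosyltransferase of N-glycan assembly, was at 28.5, 14.5, 21.8 and 24.4 FPKM. Adprh, which removes ADP-ribose from proteins, was at 43.3, 23.0, 24.9 and 30.03 FPKM. For Alg3 and Adprh alike, B117P was the highest library and B117H the lowest. B3gnt5, which starts lacto-series glycolipids, was at 31.6, 31.4, 15.01 and 19.0 FPKM, the same in both B117 lines. Hlcs, which attaches biotin to carboxylases, was at 0.628, 1.58, 5.95 and 3.84 FPKM. Genes of nucleotide synthesis and drug export, picked out after their values were seen, are given next. A link between their levels and the response to Ara-C was not tested. Gart, of purine synthesis, was at 89.1, 52.0, 88.0 and 91.4 FPKM, and Umps, of pyrimidine synthesis, at 45.8, 29.5, 49.3 and 62.4. For both, B117H was the lowest library and the parents were close. Of the exporters, Abcc1 was at 25.5, 14.98, 18.4 and 20.5 FPKM and Abcc5, which exports nucleotide analogues, at 9.43, 8.40, 6.01 and 7.22.

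Both blocks with human counterparts were near the chromosome's median. The 23 counterparts of 22q11 genes had a median of -0.50, with 22 below 0 and 18 at or below 0.8 times the parent. On the log2(FPKM + 1) scale 1, Rtn4r, was at least 2-fold lower, and in plain FPKM Prodh was too, at 44.0%. Dgcr6 was at 20.2, 10.6, 12.1 and 11.97 FPKM. Prodh, proline dehydrogenase, was at 3.96, 1.74, 2.91 and 1.65 FPKM. Prodh was thus lower in the resistant line of both lineages, and Dgcr6 was high in B117P alone. The 48 counterparts of human chromosome 21 genes had a median of -0.48, with 45 below 0 and 36 at or below 0.8 times the parent. On the log2(FPKM + 1) scale 3 (Ifngr2, Ifnar2 and Tmem50b) were at least 2-fold lower. In plain FPKM Dopey2 was at 49.1% of the parent, and Hlcs was higher, at 251%. Setd4 was at 2.62, 2.32, 1.01 and 0.702 FPKM. The lists overlap one another, 147 of the 302 genes are in at least 1 of them, and a list median near -0.48 does not set a list apart from the chromosome.

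**Figure D4:**
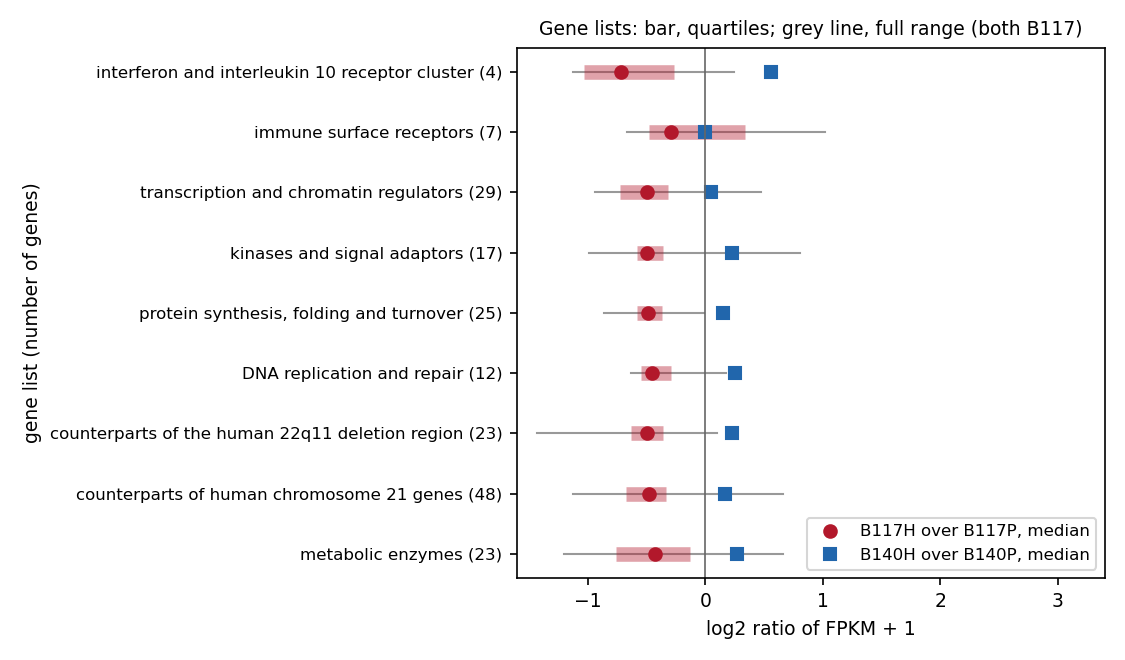
B117H over B117P in 9 lists of chromosome 16 genes, as the median (circle), quartiles (bar) and full range (grey line) of the log2 ratio of FPKM + 1, with the median of B140H over B140P as a square; the number of genes follows each name. The circles lie between -0.72 and -0.29, and the squares between 0 and 0.56.

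On the log2(FPKM + 1) scale, 2 of the 302 genes were at least 2-fold higher in B117H, Alcam and St3gal6. All 2-fold calls in this paragraph use that scale, which shrinks the ratios of low genes. On the plain FPKM scale the low genes Cd96, Mylk and Hlcs were also past 2-fold, at 228%, 237% and 251% of the parent. St3gal6, a sialyltransferase that helps build selectin ligands, was at 10.9, 23.0, 1.90 and 0.163 FPKM. It was higher in the resistant line of lineage B117, at 212% (171 to 265%) of the parent, and lower in that of lineage B140, at 8.60%. In lineage B140 the other genes at least 2-fold lower were Fam43a, at 2.45, 1.60, 11.6 and 2.51 FPKM, Mpv17l, at 14.9, 12.6, 4.41 and 0.947, Ccdc116, at 4.95, 2.99, 3.29 and 0.887, and Il1rap. At least 2-fold higher there were Gcet2, Rtn4r, Tmem50b, Il10rb and Cryzl1, with Zdhhc8, a palmitoyltransferase, at 10.03, 8.78, 6.85 and 18.6 FPKM, and Itsn1, an endocytic scaffold, at 41.4, 27.4, 1.51 and 5.11. At least 2-fold lower in B117H and at least 2-fold higher in B140H were 3 genes (Rtn4r, Gcet2 and Tmem50b), and 1 (St3gal6) was the reverse. No gene passed 2-fold in the same direction in both. The same joint counts over all expressed genes are not given here, so nothing is read from these few genes.

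Some chromosome 16 genes differed far more between the lineages than within them. App, the amyloid precursor protein, chosen after its values were seen, was at 127 and 70.5 FPKM in B117P and B117H and at 0.067 and 0.037 in the B140 lines. Tnk2, a non-receptor tyrosine kinase chosen the same way, was at 0.574 and 0.058 in the B117 lines and at 32.0 and 52.0 in the B140 lines. Erg, Cd96, Pdia5, Mylk, Retnlb and Dscam were each listed at 0 in 1 or both B140 lines. With them left out, 296 genes had a median of -0.48 in lineage B117. Just inside the level of 1 FPKM were Mylk (mean 1.02) and Dnajc28 (mean 1.03, at 1.78, 0.994, 0.701 and 0.663), and just outside it were Muc13 (mean 0.968, at 3.52, 0.223, 0.0178 and 0.111) and Adcy9 (mean 0.793, at 1.496, 1.12, 0.524 and 0.0362).

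Against the other chromosomes, the median B117H over B117P was lowest for chromosome 16, at -0.47 over its 328 expressed genes, followed by chromosome 13 at -0.44 and chromosome 19 at -0.13, while chromosome 12 was highest at 0.44. Chromosome 13 was the most similar, but its genes were more spread and B117P did not stand apart there as on chromosome 16. Its quartiles were -0.87 and 0.11 over 384 genes, and 67.2% were below 0. B117P over B140P had a median of -0.06 there against 0.41 on chromosome 16, and B117H over B140H a median of -0.45 against -0.26. Thus B117P gave the highest of the 4 values for 24.0% of chromosome 13 genes and 63.6% of the 302 chromosome 16 genes. A low B117H was shared: it gave the lowest value for 52.3% of the former and 49.3% of the latter. Among the expressed genes outside the 302 that share was 29.8%. Chromosomes 4 and 1 had parental medians of 0.45 and 0.39, close to that of chromosome 16, but B117H over B117P medians of -0.02 and 0.07. None of these differences between chromosomes was tested, since each rests on the same 4 libraries.

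**Figure D5:**
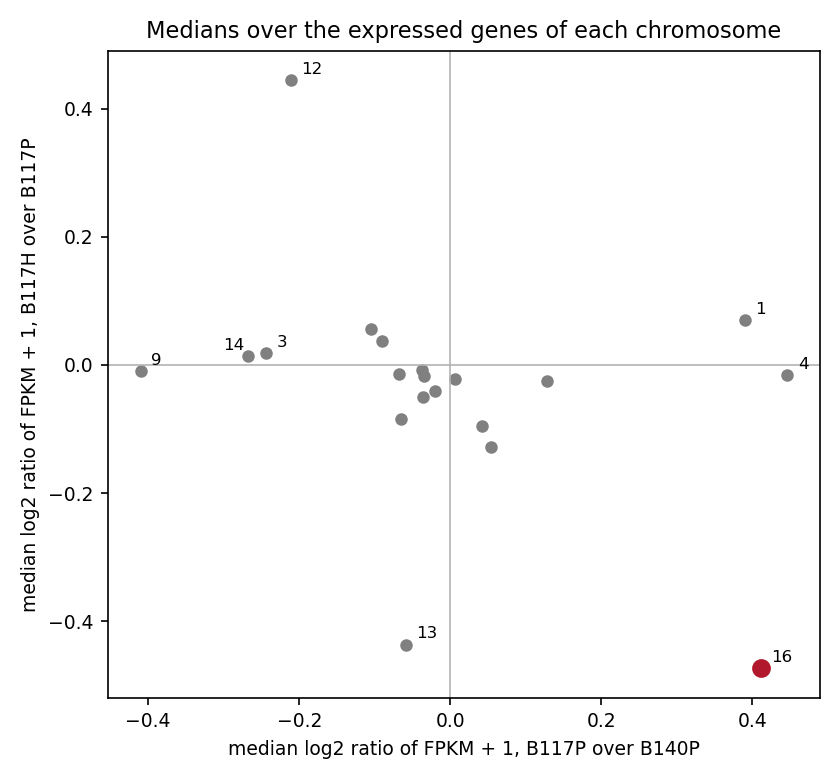
Median log2 ratio of FPKM + 1 over the expressed genes of each of 20 chromosomes, B117P over B140P on the horizontal axis and B117H over B117P on the vertical axis; chromosome 16 is red and chromosomes near the origin carry no number. Chromosome 16 lies alone at the lower right, at 0.41 and -0.47, chromosome 13 below the origin and chromosomes 1 and 4 to the right of it.

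The libraries differed in cell markers as well, and the part of this in the chromosome 16 values was not tested. All 9 myeloid markers were at or above 1 FPKM in both B117 lines, but their summed level was 1831 FPKM in B117P and 758 in B117H, mostly through Mpo, myeloperoxidase, at 1450 and 473. Ptprc (74.5 and 89.0), Itgam (6.77 and 8.86) and Kit (29.9 and 34.2) were higher in B117H, and the other 5 were lower. In B140P and B140H 7 and 6 of the 9 reached 1 FPKM, with sums of 164 and 185, and 1 was listed at 0. Of 6 B lymphoid markers, 1 reached 1 FPKM in the B117 lines (sums 2.51 and 3.53) and 3 in the B140 lines (77.2 and 104). Of 5 erythroid markers 1 or 2 reached 1 FPKM in each line, with sums of 2.21 to 8.71, and of 5 stromal markers none did. The spacing of low values gave an estimated 19300000 to 24950000 fragments per library, at which 3 fragments on a 2 kb transcript equal 0.0601 to 0.0777 FPKM.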

How the data were processed

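RNA-seq values of 4 mouse leukaemia lines, 1 library each, were analysed. The authors deposited FPKM per gene for each library; per the submitters' processing notes TopHat2 2.0.4, Cuffdiff and build mm9 were used, and their settings and annotation are not given in the sources used here. The deposited FPKM values hold no counts, so log2(FPKM + 1) ratios of pairs of libraries were computed with Python 3.11.15, pandas 2.3.3, numpy 2.4.6 and scipy 1.17.1 and described with no test. Genes with a mean of at least 1 FPKM over the 4 libraries entered. The scripts were tested on simulated data. Motifs were searched by exact letters in the 250 bases before each RefSeq start. Start coordinates matched RefSeq spans when counted from 0 (6285 of 19357 genes, against 434 from 1), so 1 was added. Library depth was estimated from low values of genes with 1 annotated transcript of at least 3 kb: 69.5 to 80.4% of these values lay within 0.15 of a whole fragment, the search was limited to a set range, and the unit comes from those same values. Counting intervals are exact Clopper-Pearson intervals (95%) on such fragment numbers with median transcript lengths.

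Named genes were the 12 lowest and 6 highest ratios in lineage B117, the 4 lowest and 4 highest in lineage B140, genes past 2-fold in both, the 5 with the highest mean, the 2 on either side of the filter, and up to 3 of the most different and the 1 nearest to 0 in each of 9 gene lists; small RNA genes and unnamed clones were left out. The genes and lists were chosen with earlier results of these data known. Listed spans of 56 of the 302 genes overlap another listed gene, and whether the counting used strand is not given in the sources used here. The alternatives tried were another pseudocount, another minimum, no minimum, 2 other scalings, a 1.5-fold rule, the genes left out by name put back, and genes with overlapping spans or listed at 0 left out; 1 more was added after the data were seen.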

Additional observations from a re-analysis of the deposited data

Results flagged for a closer look

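The same contrast, resistant line over parent, had ratios of opposite sign in the 2 lineages for the 302 chromosome 16 genes as a set and for 4 single genes. The difference was not tested, since each lineage has 1 library per line. The median log2 ratio of FPKM + 1 differed by -0.65, lineage B117 minus lineage B140 (-0.48 against 0.17). Much of the 0.17 is shared by all expressed genes of lineage B140, whose median was 0.11, and it became 0.0618 with the libraries centred on their medians and 0.029 with equal sums of FPKM. Rtn4r, at 28.4% of its parent in B117H and 243% in B140H, differed by -2.63. Gcet2 differed by -2.72, with an estimated 7 fragments behind its B117H value. Tmem50b differed by -2.07, and its ratios were within 2-fold in both lineages (-0.97 and 0.94) once the libraries were centred on their medians. St3gal6 differed by 2.34 in the other direction, higher in B117H and lower in B140H.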

How the results depend on the processing

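Over the alternatives tried, the median in lineage B117 stayed below 0. With a pseudocount of 0.1 it was -0.52 (-0.50 after subtracting the other genes' median), and 5 genes were at least 2-fold higher. With no minimum level, which adds 316 genes below 1 FPKM, the medians were -0.0602 in lineage B117 (also -0.0602 after subtraction, 54.9% below 0), 0 in lineage B140 (0 after subtraction, 22.8% below 0), 0.0307 for B117P over B140P and 0 for B117H over B140H. With a minimum of 5 FPKM, 1 gene was at least 2-fold higher in lineage B117, and in lineage B140 24.3% were below 0, 2 were at least 2-fold lower and 16 were at or below 0.8 times the parent. With the libraries centred on their medians, the medians were -0.43 in lineage B117, 0.0618 in lineage B140 (42.1% below 0, 4 at least 2-fold higher) and -0.12 for B117H over B140H. With equal sums of FPKM they were -0.43, 0.029 (44.0% below 0, 4 at least 2-fold higher) and -0.0353. Centring or equal sums moved the split of 7 higher and 5 lower genes in lineage B140 to 4 and 5 (58.3% to 44.4% higher), which turns its balance. A 1.5-fold rule gave 98 lower and 5 higher genes in lineage B117 and 28 higher in lineage B140. Shares over all expressed genes are not given for that rule, and nothing is read from its counts. Of single genes, 326 values kept their side of 2-fold, 6 passed it and 10 no longer did, among them Lrrc33, Ifnar2, Tmem50b and Il10rb under the 2 other scalings. Without the 27 proximal genes, a split chosen after seeing the data, the median was -0.50. No library was left out, since each line has 1. No paired test was made: each lineage has 1 library of the resistant line and 1 of its parent, and the 2 lineages were not pooled as pairs. Beyond the alternative's own construction, the cause was not tested.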
